A study of Mus musculus with 2 samples.

Results

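Telomere maintenance in mouse embryonic stem cells was followed here through 10 genes: Tert, Dkc1, Terf1, Terf2, Tinf2, Acd, Pot1a, Pot1b, Rtel1 and Rif1. They were taken as the non-control probes of the array whose gene name is one of these symbols. All 10 were found, with 24 probes, among 37074 gene names and 56605 probes in all. The RNA came from cells of the line 46C, an embryonic stem cell line known for a GFP reporter at the Sox1 locus. The cells were grown with serum and LIF on a feeder layer that was removed before RNA isolation. The 2 groups were shLincU, which carried a short hairpin against the long noncoding RNA LincU, and shCtrl, the control, with 1 array each. The control sample's title reads WT, and whether either line was a clone or a pool, and how long the hairpin acted, is not stated in the labels. By its title, the study concerns naive pluripotency and the restraint of ERK signalling by LincU. With 1 array per group no difference has a replicate check, no test between the groups was possible, and the number of arrays limits the precision.

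Telomeres end in tandem repeats that shorten at each round of replication. Telomerase, the reverse transcriptase TERT with its RNA template TERC and the RNA-binding protein dyskerin, adds repeats back, and it is active in embryonic stem cells. Shelterin is the protein complex that covers the repeats and keeps the chromosome end from being treated as a break. Mouse embryonic stem cells also have a recombination-based route of telomere lengthening, which is known for its link to ZSCAN4 in cells that pass through a state like that of the early cleavage embryo.

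The probes are oligonucleotides of 60 bases, and 7 of them are shown here. The Terc, Tert and Dkc1 probes carry the telomerase results, and the Tinf2 probes carry the shelterin difference that exceeded its error and kept its sign under the 8 alternative processings that moved any member. Coordinates are mm9, as the array gives them, and each sequence runs 5′ to 3′. Capitals mark CTAACCCT, the complement of the telomere repeat, which in the Terc probe is the template that the enzyme copies.
Terc, chr3:96218697-96218756, minus strand: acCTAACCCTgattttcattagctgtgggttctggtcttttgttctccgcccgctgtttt
Tert, 5′-most probe, chr13:73767063-73767122, plus strand: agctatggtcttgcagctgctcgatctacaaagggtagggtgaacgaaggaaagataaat
Tert, middle probe, chr13:73779460-73779519, plus strand: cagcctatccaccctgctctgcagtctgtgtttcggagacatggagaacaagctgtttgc
Tert, 3′-most probe, chr13:73786429-73786488, plus strand: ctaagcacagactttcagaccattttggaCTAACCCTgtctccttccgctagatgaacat
Dkc1, 5′-most probe, chrX:72345852-72346341, plus strand: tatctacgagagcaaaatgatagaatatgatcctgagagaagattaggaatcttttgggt
Tinf2, 5′-most probe, chr14:56298352-56298411, minus strand: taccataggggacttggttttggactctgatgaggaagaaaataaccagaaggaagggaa
Tinf2, 3′-most probe, chr14:56296685-56296744, minus strand: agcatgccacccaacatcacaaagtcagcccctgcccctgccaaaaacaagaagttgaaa
The 8 letters CTAACCCT, or AGGGTTAG on the other strand, occur in 66 of 56605 probes (0.117%), and the 3′-most Tert probe is the 1 member probe that holds them. The match in Tert is a description of the letters and says nothing of a function there. The 60 bases of the Dkc1 probe stretch over 490 bases of the genome, so this probe crosses at least 1 splice junction, and a Rif1 probe at chr2:51962471-51963167 does so over 697 bases. Exon and UTR annotation in mm9 was not used here.

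All values below are log2 signals relative to the 75th percentile of the same array, and a difference is shLincU minus shCtrl. That percentile was 420.4 intensity units on the shLincU array, against 626 for shCtrl, so the shLincU array was dimmer before scaling. Of all probes, 57.9% were well above background with shLincU and 60.9% with shCtrl, and no spot was saturated. The error given beside a difference is that of the scanner software, which rests mostly on a preset multiplicative error and is not a spread between samples. It was 0.20 to 0.42 for a member probe, while the difference of 295 probes spotted repeatedly had a median SD of 0.040 between spots. For a gene, the errors of its probes were combined as if independent, so the error of a gene falls with its number of probes. No probe was matched to LincU, so the knockdown was not seen in these values, and which array is which is known from the labels alone. All 12 embryonic stem cell markers examined were measured on both arrays, with a median difference of 0.035 and summed signals, relative to the 75th percentile, of 935 for shLincU and 839.9 for shCtrl. Most of either sum came from Dppa5a, at 9.42 with shLincU and 9.19 with shCtrl on 1 probe. Pou5f1 was at 4.77 with shLincU and 4.80 with shCtrl and Sox2 at 4.90 on both. Nanog was at -0.14 and -0.41, and its probes differed by -0.26 and 0.79.

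None of the 10 members was 2-fold apart between the arrays. Across all 21042 genes measured on both arrays 2.69% were, 1.15% higher and 1.54% lower with shLincU, so a count of 0 among 10 genes is close to that background. Their folds, shLincU over shCtrl, ran from 0.84 for Pot1b to 1.11 for Terf1, and none reached 1.5-fold, against 9.61% of all genes. Expression was higher on the shLincU array for 4 members (Terf1, Tert, Pot1a and Rtel1) and lower for 6, while 53.0% of all genes were higher. Rtel1 turned lower under 3 alternative processings and Pot1b higher with normexp background correction (offset 50). These directions are relative to the 75th percentile; scaled to the E1A spike-in controls as such, all 10 members were lower with shLincU, from -1.14 to -0.74, and the median of all genes moved by -0.89. The median difference was -0.036 over the members and 0.019 over all genes. The median size of a difference, regardless of sign, was 0.097 for the members and 0.19 for all genes. These sizes are not like for like, since averaging over probes can shrink a difference. Several probes were measured for 8 of the 10 members, against 7132 of the 21042 genes, and 4 members had probes of opposite sign. Of the 10 differences, 3 exceeded the error of the scanner software (Pot1b, Tinf2 and Dkc1, all lower), against 48.6% of all genes. That error, too, is smaller for genes with several probes. Both Dkc1 probes and the 5′-most probes of Tinf2 and Pot1b lay within their own error. These counts describe the pair of arrays, and without replicates they do not show that expression was equal.

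**Figure D1:**
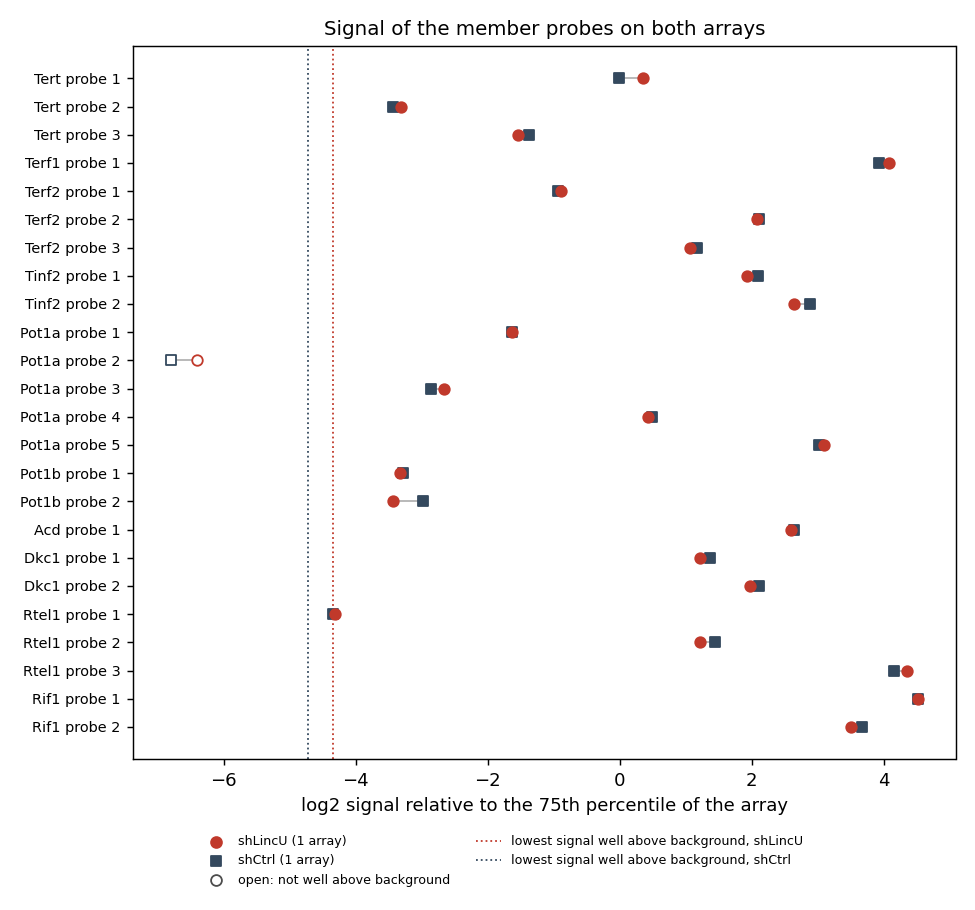
Log2 signal relative to the 75th percentile of the array (x axis) for each of the 24 member probes (rows, numbered from the 5′ end), with circles for the shLincU array and squares for the shCtrl array. The symbols of a probe lie close together, the widest gap among measured probes being that of Pot1b probe 2, and the open symbols mark the Pot1a probe that was not well above background on either array.

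Of the 24 probes, 23 were well above background on both arrays, so every member was measured. Among these, 8 were higher and 15 lower on the shLincU array, while 53.0% of all genes were higher. The exception was a Pot1a probe designed from a cDNA clone, at 4.98 intensity units with shLincU and 5.60 with shCtrl, which was not well above background on either and gives no difference. The accessions of 17 probes were listed in RefSeq under the same symbol, and the other 7 probes, designed from cDNA clones or Ensembl transcripts, had no accession there.

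The mean differences of the telomerase genes Tert and Dkc1 were smaller in size than the median of 0.19 for all genes. Tert, the catalytic subunit, averaged -1.50 with shLincU and -1.60 with shCtrl, a difference of 0.10 with an error of 0.13 over 3 probes. Its probes did not go the same way. The 5′-most probe, designed from a cDNA clone, read 534 intensity units with shLincU and 623 with shCtrl, and after scaling it was higher by 0.35. The middle probe read 42.5 and 57.8 units and differed by 0.13. The 3′-most probe read 144 and 242 units and differed by -0.17. The sign of the Tert difference was thus set by which probe is read, and the spread between its probes (SD 0.26) was larger than the difference itself. At 0.10, the Tert difference was equalled or exceeded in size by 70.8% of all genes.

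Dkc1 encodes dyskerin, the pseudouridine synthase that binds and stabilises the telomerase RNA. Its 5′-most probe, shown above, was at 1.22 with shLincU and 1.37 with shCtrl. The other probe was at 1.97 and 2.11. Both were lower, with differences of -0.15 and -0.14 and an SD of 0.0064 between them, the smallest of the 8 members with several measured probes. The mean difference of -0.15 just exceeded its error of 0.14, though each probe lay within its own error of 0.20. By comparison, 59.3% of all genes differed by at least as much.

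Terc, the RNA that carries the template, is no member and was added after the files had been examined, because the enzyme cannot be described without it. Its single probe was at -1.93 with shLincU and -1.88 with shCtrl, a difference of -0.046 with an error of 0.22. Terc lacks the long poly(A) tail of messenger RNAs, and the labels do not say how the labelling reaction was primed. With normexp background correction (offset 50) the Terc difference was 0.10.

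Among the shelterin genes that bind double-stranded repeats, Terf1 had the highest difference of the 10 members and Terf2 was close to 0. Terf1, the TRF1 protein gene, was at 4.08 with shLincU and 3.93 with shCtrl, a difference of 0.15 with an error of 0.20 on a single probe. Terf2 encodes TRF2, which is known for protecting ends from fusion. Its probe nearest the 5′ end was at -0.89 and -0.94, the middle one, designed for transcript variant 2, at 2.09 and 2.12, and the 3′-most one at 1.07 and 1.17. These differed by 0.045, -0.031 and -0.10, so the probe of variant 2 lay between those designed for variant 1, and the mean was -0.029 with an error of 0.12.

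Tinf2 and Acd encode TIN2 and TPP1, which join the proteins on the double strand to those on the overhang, and TPP1 also recruits telomerase. The 5′-most Tinf2 probe was at 1.93 with shLincU and 2.10 with shCtrl, and the 3′-most one at 2.64 and 2.88. Both were lower, with differences of -0.17 and -0.24, each with an error of 0.20. The mean of -0.20 exceeded its combined error of 0.14. It was nevertheless a modest difference on these arrays, since 46.5% of all genes were at least as far apart. Acd, with 1 probe at chr8:108222138-108222197, was at 2.59 and 2.63, a difference of -0.044 with an error of 0.20.

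Pot1a and Pot1b, the paralogous genes of the protein on the single-stranded overhang, arose by duplication in rodents. In mice POT1a is known for holding back the ATR damage response and POT1b for limiting resection of the end. The longest run shared by any of the 10 pairs of a Pot1a and a Pot1b probe was 10 bases, so the paralogs were read by different sequences. Pot1a averaged -0.19 with shLincU and -0.25 with shCtrl, a difference of 0.056 with an error of 0.11. From 5′ to 3′ its 4 measured probes differed by -0.0053, 0.20, -0.058 and 0.085.

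Pot1b had the lowest difference of the members, and it rested on 1 of its 2 probes. The probe at chr17:55836559-55836618 read 41.7 intensity units with shLincU and 64.0 with shCtrl, which after scaling was a difference of -0.044. The probe at chr17:55792319-55792378 read 38.8 and 79.3 units, a difference of -0.46, the lowest of all member probes. Both probes were dim, at -3.33 and -3.29 for the first and -3.44 and -2.98 for the second, against a lowest signal well above background of -4.34 with shLincU and -4.72 with shCtrl. The mean difference of -0.25 had an error of 0.19. With normexp background correction it was 0.10. That setting models the background and also adds an offset of 50 units, where the processed signals of these probes were 38.8 to 79.3 units, and which of these turned the sign was not tested.

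Rtel1 and Rif1 act at telomeres outside shelterin. RTEL1 is a helicase known for unwinding the loop at the chromosome end. Its probes from 5′ to 3′ were at -4.31, 1.21 and 4.35 on the shLincU array and at -4.34, 1.44 and 4.15 on the shCtrl array. They differed by 0.033, -0.23 and 0.20, and the opposite signs of the 2 bright probes, which lie within 1 kb of each other at chr2:181090632-181090691 and chr2:181091224-181091283, brought the mean to 0.00084. The mean near 0 therefore did not come from probes that were each near 0. The 5′-most probe was barely above the lowest detectable signal on the shLincU array and had the largest error of any measured member probe, 0.42.

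RIF1 controls replication timing and the choice of break repair, and in mouse embryonic stem cells it is also known as a repressor of Zscan4 that affects telomere length. Its probes were at 4.51 and 3.51 on the shLincU array and at 4.52 and 3.68 on the shCtrl array. The difference was -0.0091 for the 5′ probe and -0.17 for the 3′ probe, with a mean of -0.090 and an error of 0.14.

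**Figure D2:**
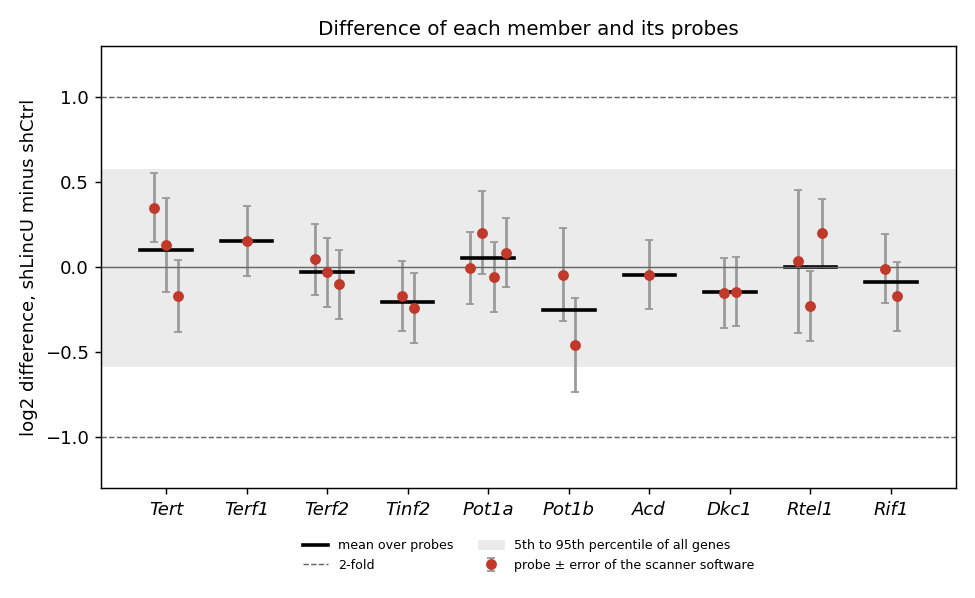
Log2 difference, shLincU minus shCtrl (y axis), for each measured probe of the 10 members (points, with bars for the error of the scanner software) and their mean (black lines), with the 5th to 95th percentile of all genes shaded from -0.58 to 0.57. Every member lay inside the shaded range and inside the dashed 2-fold lines, and the probes of Tert, Pot1b and Rtel1 were spread most widely.

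The 8 members with several measured probes were also read by probe position. In 5 of them, Tert, Terf2, Tinf2, Pot1b and Rif1, the 3′-most probe was lower than the 5′-most probe on the shLincU array relative to the shCtrl array. The gap, 3′-most minus 5′-most difference, was -0.52 in Tert, -0.41 in Pot1b, -0.16 in Rif1, -0.15 in Terf2 and -0.072 in Tinf2. It was 0.0091 in Dkc1, 0.091 in Pot1a and 0.16 in Rtel1, and the median over the 8 members was -0.11. For all genes the values were close to these. Among 6184 genes with measured probes at least 500 bases apart the median gap was -0.12, and the 3′-most probe was the lower one in 63.2%. A gap as low as that of Tert occurred in 15.0% of these genes and one as low as that of Pot1b in 21.3%. Whether RNA integrity, labelling or transcript ends moved the member differences was not tested.

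**Figure D3:**
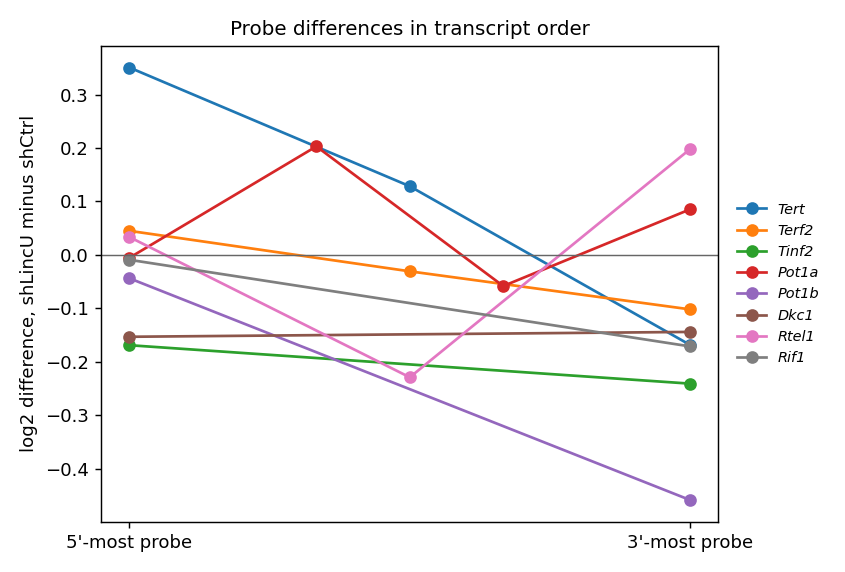
Log2 difference, shLincU minus shCtrl (y axis), of the measured probes of 8 members in transcript order from the 5′-most to the 3′-most probe (x axis, probes evenly spaced and not to genomic scale). The lines of Tert, Terf2, Tinf2, Pot1b and Rif1 slope downward, that of Dkc1 is almost flat, and those of Pot1a and Rtel1 turn.

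Spots that differed between the arrays were more frequent in one area of the slide, with 4.10% of spots 2-fold apart in the lower rows and 1.34% in the upper rows. The members had 14 probes in the lower and 10 in the upper rows. Of the 24 probes, 4 lay beside other discordant spots (1 each of Terf2, Tinf2, Dkc1 and Rtel1), against 6.04% of all non-control spots. Without these 4 the differences were -0.028 for Terf2, -0.24 for Tinf2, -0.14 for Dkc1 and -0.015 for Rtel1, so Rtel1 changed its sign.

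The other genes of telomere biology were read from 7 lists. In 6 of them, with 57 measured genes, 28 were higher and 29 lower, the median difference was -0.0033, and 0 were 2-fold apart. Of the 57, 4 reached 1.5-fold (Tnks2, Hmbox1, Suv39h1 and Ccdc155), against 9.61% of all genes, so this count too is near the background. In the seventh list, the Zscan4 and Tcstv genes of the 2-cell-like state, all 5 measured genes were at least 2-fold lower on the shLincU array, against 1.54% of all genes. The lists were chosen with earlier results of these data known, so that count is a description and no support. All of the 5 but Tcstv3 are Zscan4 copies whose probes can share signal, so they are not separate readings.

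The telomerase particle list held 11 measured genes, 7 higher and 4 lower, with a median of 0.046. Pinx1, an inhibitor of telomerase, was the lowest at -0.39. Ruvbl1, an ATPase of particle assembly, was at 0.31, and Naf1 and Shq1, assembly factors of dyskerin particles, were at 0.27 and 0.24. The remaining dyskerin partners of the mature particle, named here for that role after their values were seen, were Nop10 at -0.10, Nhp2 at 0.040 and Gar1 at -0.18.

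The list of shelterin partners and nucleases had a median of 0.081, with 7 of 10 genes higher and 3 lower. Tnks2 and Tnks, the tankyrases that modify TRF1, were at 0.73 and 0.36, but the probes of Tnks2 differed by 0.29 and 1.18 and those of Tnks ranged over 0.070 to 0.72. Hmbox1, a protein that binds telomere repeats, was at 0.69 on 1 probe, and Ercc1, a subunit of a flap endonuclease, was at 0.14. Of these 10 genes, 2 were at least 1.5-fold apart, beside 9.61% of all genes.

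For the CST complex and the synthesis of the lagging strand, 2 of 9 genes were higher and 7 lower, with a median of -0.015. Obfc1, the STN1 subunit of CST, was at 0.29 with all measured probes between 0.27 and 0.32. Prim1, the catalytic subunit of primase, was at -0.24, Ten1 of CST at -0.11 and Pola2 of DNA polymerase alpha at -0.10. Among helicases and damage response genes, 4 of 11 were higher and 7 lower, with a median of -0.0088. The kinase gene Atm was at -0.32, with probes at -0.58 and -0.063. Trp53bp1 and the helicase gene Pif1 were both at 0.28, and the nuclease gene Mre11a was at 0.22. The probes of Trp53bp1 ranged from 0.071 to 0.61. Those of Pif1 ranged from 0.22 to 0.34, with at least 1 of them beside discordant spots.

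Telomeric chromatin genes had a median of 0.052, with 7 of 12 higher and 5 lower. Suv39h1, a histone H3 lysine 9 methyltransferase, was at 0.60 and Dnmt3b, a de novo DNA methyltransferase, at 0.57. Cbx3, a heterochromatin protein, was at 0.40 and Hells, a remodelling helicase, at -0.30. Of the meiotic attachment genes 5 were on the array and 4 measured, 1 higher and 3 lower, with a median of -0.076. Ccdc155, whose protein links telomeres to the nuclear envelope in meiosis, was at -0.59 on 1 of its 2 probes. This probe was dim, at -3.04 with shLincU and -2.45 with shCtrl, and its difference only just reached 1.5-fold. Cdk2 was at -0.12, Sun1 at 0.073 and Sun2 at -0.027.

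**Figure D4:**
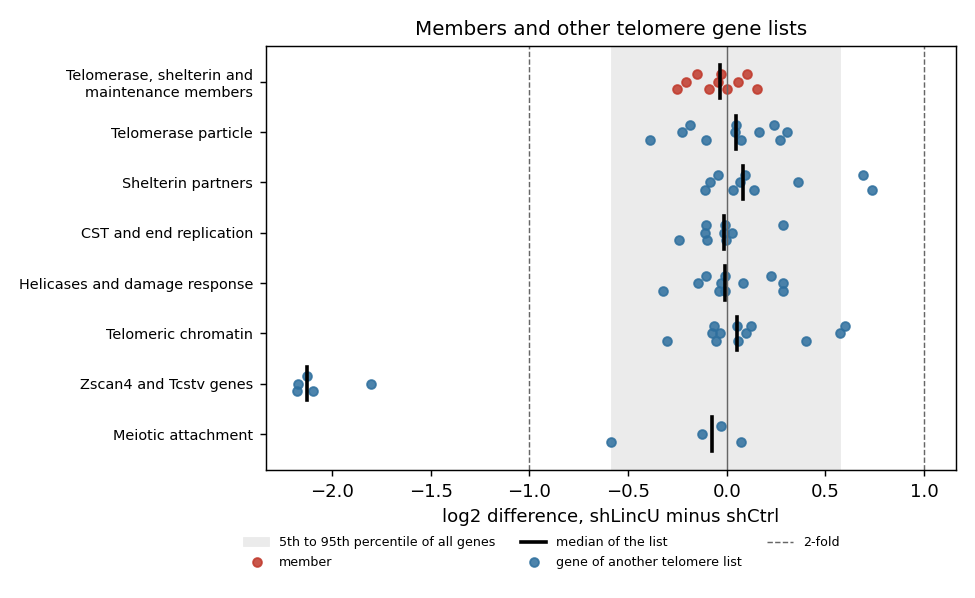
Log2 difference, shLincU minus shCtrl (x axis), of the 10 members (top row) and of the measured genes of the 7 other telomere lists (points), with the median of each list (black lines) and the 5th to 95th percentile of all genes shaded. The members and 6 lists centre near 0, with medians from -0.076 to 0.081, while the 5 measured Zscan4 and Tcstv genes lie between -2.18 and -1.80.

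The Zscan4 and Tcstv genes had a median difference of -2.12. Zscan4c was at -2.24 with shLincU and -0.062 with shCtrl, a difference of -2.18 with both probes lower. Zscan4a was at -0.57 and 1.60, Zscan4b at 0.017 and 2.14, and Zscan4f at 0.23 and 2.32. Their differences were -2.17, -2.12 and -2.09. Tcstv3 was at 1.25 and 3.05, a difference of -1.80. Tcstv1 was well above background on the shCtrl array only and was at least 2-fold lower on the shLincU array. Bounds of that size were found for 23.6% of the 2250 genes seen on 1 array only. Zscan4d was not well above background on either array. Probes of near-identical Zscan4 copies can share signal, so the single copies are uncertain, and in RNA of a bulk culture fewer cells of a type and less RNA per cell cannot be told apart. None of the probes of these genes lay beside discordant spots. The difference between this list and the telomerase and shelterin genes is a description of 2 arrays and was not tested.

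Markers of fibroblast feeder cells also moved between the arrays. Of 15 measured markers 6 were higher and 9 lower, 5 of them at least 2-fold lower, against 1.54% of all genes, with a median of -0.52. Lum, the remaining marker on the array, was well above background with shLincU only and was at least 2.32-fold higher there. Its 1 probe lay beside discordant spots and was dim, at -3.50 against a lowest signal well above background of -4.34 with shLincU. Dcn was at -2.41 and Col1a2 at -1.20, while Col1a1 was at 0.45. Col1a2 rested on 1 of its 4 probes and Dcn on a single probe. Col1a1 had at least 1 probe beside discordant spots, while Dcn and Col1a2 had none. Summed over the list, the signal relative to the 75th percentile was 75.6 with shLincU and 69.7 with shCtrl, and 0 markers were below background on both. Most of that sum came from Tagln, at 4.91 with shLincU and 4.03 with shCtrl, and Vim, at 4.73 and 4.81. The sum therefore says little of the other markers. Of 10 markers of differentiated cells, all measured on at least 1 probe, 9 were higher and 1 lower, against 53.0% of all genes higher. Of them 2 were at least 2-fold higher, against 1.15% of all genes, with a median of 0.39 and summed signals of 5.03 and 2.94. Several were dim, such as Foxa2 at -3.89 and -4.42. The probes of Eomes, at least 1 of them beside discordant spots, differed by -0.88 and 1.37. Gata6 at 0.088, Sox17 at 0.14, Sox1 at 0.095 and the lower one, Pax6, at -0.023 lay within their errors. Sox17 rested on 1 of its 3 probes and Pax6 on 2 of 6. The part of feeder or differentiated cells in the differences of the telomere genes was not tested.

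Of the 12 alternative processings, 8 moved any member. Median centring and E1A scaling, once the shift of all genes is taken off, return the same values by construction, and keeping outlier spots or using the looser detection flag changed no member. Under the 8 that moved any, the largest difference in size was 0.46, and 76 of 80 member values lay within the software error of the value given above. The other 4 belonged to Tert, Pot1b and Rtel1, whose probes disagreed most. All 3 genes moved when only the brightest probe was read, and Pot1b also moved with normexp background correction, which still averaged its probes. A direction here means higher or lower relative to the other genes on the array, not an absolute amount of RNA.

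**Figure D5:**
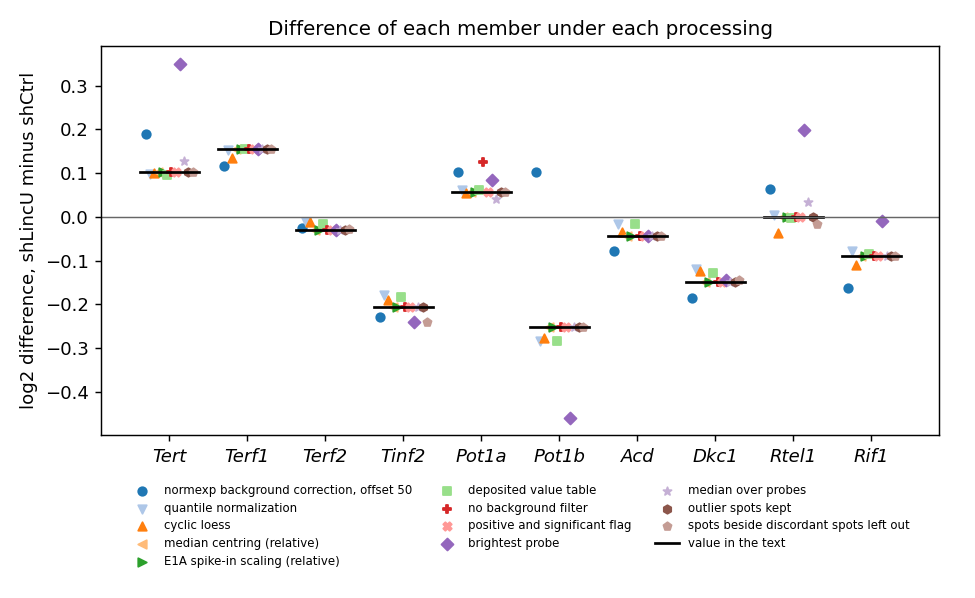
Log2 difference, shLincU minus shCtrl (y axis), of each member under 12 alternative processings (symbols) beside the value in the text (black lines); for median centring and E1A scaling, marked relative, the shift of the median of all genes was taken off, so these repeat the value in the text by construction. No symbol passes 0.46 in size, and Pot1b and Rtel1 are the members whose symbols lie on both sides of 0.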

How the data were processed

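Cy3-labelled cRNA of shLincU and of shCtrl cells was hybridised to 1 Agilent array each, per the labels. The submitters' processing notes name Agilent Feature Extraction 10.7.1.1 as the source of the deposited intensity values per spot. Per the file headers, the processed intensity is background-subtracted and detrended, and the mean and background intensities are uncorrected; other deposited columns are flags. The deposited value table holds log2 values with matching quantiles, a median of 5.65 in each column, and a slope of 1.00 on the scanner log2 values over 56572 probes; its scale is thus log2 and its direction that of the signal, while its centring and normalization are not given in the sources used here.

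Outlier spots (138 on shLincU, 98 on shCtrl) were left out, spots of a probe averaged in log2, and the 75th percentile over probes subtracted. A gene was the array's gene name, and its difference the mean over probes well above background on both arrays. A 2-fold size replaced a test. Strand came from the order of the array's mm9 coordinates. The members and lists were chosen with earlier results of these data known. Named were all members, up to 4 genes per telomere list with the largest difference plus any 2-fold apart, and fixed markers. A spot counted as lying beside discordant ones where 2 or more of the 14 spots around it, within 2 rows and 1 column, were 2-fold apart in the same direction. The calculation was tested on simulated data. Python 3.11.15, numpy 2.4.6, pandas 2.3.3, R 4.3.3 and limma 3.58.1 were used.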

Additional observations from a re-analysis of the deposited data

How the results depend on the processing

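No paired analysis was possible because shLincU and shCtrl had a single array apiece, which also leaves no replicate to drop. No member was 2-fold apart under the 8 alternatives that moved any member, and none reached 1.5-fold or 3-fold in the values of the report. Of the remaining 4, median centring and E1A scaling relative to all genes repeat the values by construction, and the looser detection flag and kept outlier spots changed no member. Scaled to 8 E1A spike-in probes as such, 3 members (Pot1b, Tinf2 and Dkc1) passed 2-fold, all 10 were lower, and the median of the members was -0.93; the counts of 2-fold genes were then 44 higher and 6809 lower, against 242 and 325. With normexp background correction (offset 50) Pot1b was at 0.10. With the brightest probe Tert was at 0.35, Pot1b at -0.46 and Rtel1 at 0.20. Rtel1 turned negative with cyclic loess (-0.037), the deposited value table (-0.0033) and without spots beside discordant spots (-0.015). Under the 12 alternatives, which leave out E1A scaling as such, the median of the Zscan4 and Tcstv genes stayed between -2.12 and -1.97. Over all genes 96 were 2-fold higher and 108 lower with normexp, 1469 and 1332 without a background filter, and 954 and 907 with the looser detection flag. The software error of a member, 0.11 to 0.20, holds no variation between cultures, which 1 array per group does not measure, and the 5′ probe of Rtel1 was close to the lowest detected signal.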

Other observations

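Within the 7 telomere lists, 4 genes had the widest spread between probes of 1 gene, a selection made after their values were seen. The 7 measured probes of Sun1, an inner nuclear membrane protein that holds telomeres in meiosis, ranged from -0.88 to 0.58. Those of Mad2l2, a shieldin subunit that limits resection of ends, ranged from -0.24 to 0.87, and those of the helicase gene Wrn from -0.35 to 0.68. The probes of Ctc1, the large CST subunit, ranged from -0.46 to 0.49 around a mean of -0.0099. Sun1 and Ctc1 each had a probe beside discordant spots.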
